A study of Homo sapiens with 14 samples.

Results

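Intermediate filament genes encode the proteins of a cytoskeletal system whose make-up differs between cell types. Described here are 10 of them, of 58440 genes in the deposited tables: the keratins KRT8, KRT18 and KRT10, the type III gene VIM (vimentin), the type IV genes NES (nestin), NEFL and NEFM (the light and medium neurofilament chains) and INA (alpha-internexin), and the lamins LMNA and LMNB1. They were taken by symbol, through a match of the deposited identifiers to GENCODE release 44, and all 10 were found and passed the filter on low counts in each test. Levels were computed as counts scaled by the library's total of gene counts (CPM), without the synthetic ERCC spike-in RNAs.

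The study mixed HEK-293T cells, an attached human embryonic kidney line, with Jurkat cells, a leukemic T cell line cultured in suspension, in order to test how well the parts of a mixture can be recovered from its RNA. There were 7 conditions with 100%, 80%, 60%, 50%, 40%, 20% and 0% HEK cells, the rest being Jurkat cells, each of 1000000 cells and each sequenced in 2 libraries, 14 in all. HEK-293T was cultured in DMEM and Jurkat in RPMI, both with fetal bovine serum, glutamine and antibiotics, and no treatment is named. The libraries of a condition are called technical replicates in the records, so the errors and p-values below measure only the spread between technical replicates.

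Keratins form obligate pairs of a type I and a type II chain, and KRT8 with KRT18 is the pair of simple epithelia. Vimentin is the filament protein of mesenchymal cells and of blood cells. The type IV genes are markers of neural progenitors (NES) and of neurons (NEFL, NEFM, INA), in which the neurofilament chains assemble together. Lamins line the inner nuclear membrane, B-type lamins in nearly all cells and A-type lamins mostly in differentiated and adherent cells.

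Libraries held from 4468822 to 28303668 gene counts, and the shallowest were the 2 pure Jurkat libraries, in which 3 counts corresponded to 0.671 and 0.484 CPM. Such floors and the intervals below cover counting error only. By their file names the libraries fall into a group of 6, with both pure HEK libraries, and a group of 8, with both pure Jurkat libraries. Between pure HEK and pure Jurkat, line and file-name group cannot be told apart. Ribosomal protein genes took 12.5% and 11.8% of counts in pure HEK and 7.28% and 8.47% in pure Jurkat. Markers of the 2 lines followed their labels, with all 10 T cell markers lower and all 10 markers of attached kidney cells higher in pure HEK (edgeR quasi-likelihood test, Benjamini-Hochberg adjusted p under 0.05). Examples were CD3D, a chain of the T cell receptor complex, at 0.529 and 0.264 CPM in HEK and 260 and 238 CPM in Jurkat, and LHX1, a kidney development factor, at 15.1 and 18.1 CPM in HEK and 0.224 and 0.161 CPM in Jurkat. Gene counts per spike-in count were on average 10.0 times higher in HEK than in Jurkat, with 147 and 97.3 against 12.1 and 12.3. From its spike-ins the study put the mRNA content of HEK cells at about 6 times that of Jurkat cells. Judged by 346 genes high in Jurkat, HEK RNA made up between 60.9% and 95.7% of the RNA in the mixtures.

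Between the pure lines, 7 of the 10 filament genes passed the test and all 7 were higher in HEK, namely KRT8, KRT18, NES, NEFL, NEFM, INA and LMNA. KRT10, VIM and LMNB1 did not pass. Over all 15794 genes tested, 43.2% passed, 24.2% as higher in HEK and 19% as higher in Jurkat. DESeq2 called 7 members and 29.9% of all genes. This comparison asks which filament types separate an attached kidney line from a lymphoid line, with 2 libraries against 2. The plot of CPM by library shows each gene.

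**Figure D1:**
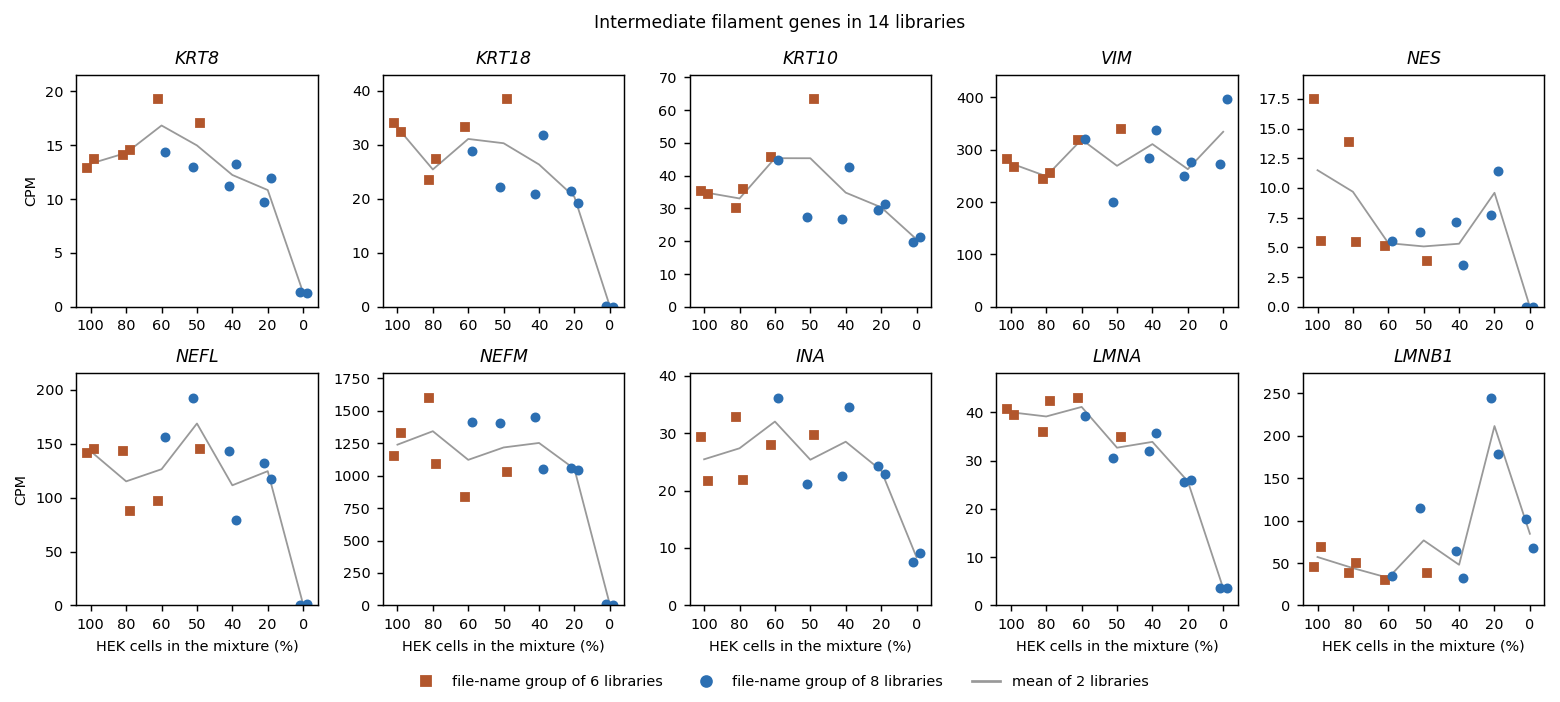
CPM (vertical axes, linear, from 0) of the 10 filament genes against the percentage of HEK cells (horizontal axes, from 100% to 0%, conditions evenly spaced), with squares and circles for libraries of the 2 file-name groups and a line through the mean of 2 libraries. KRT8, KRT18, NEFL, NEFM, INA and LMNA lie low in pure Jurkat and high wherever HEK cells were present, VIM stays between 200 and 396 CPM, and LMNB1 has its highest values, 244 and 178 CPM, at 20% HEK.

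The epithelial keratin pair was higher in HEK. KRT8 (type II) held 12.9 and 13.7 CPM in the pure HEK libraries and 1.34 and 1.29 CPM in the pure Jurkat libraries, a log2 fold change of 3.10 (SE 0.29, edgeR adjusted p = 0.00171). KRT18, its type I partner, held 34.0 and 32.3 CPM in HEK and 0.224 and 0 CPM in Jurkat. The groups did not overlap for either gene. In Jurkat, KRT18 rested on 1 count in both libraries together, so the ratio of the summed counts, 811 against 1, scaled by library totals to 352, has an exact 95% counting interval from 62.9 to 13909 (edgeR adjusted p = 0.000872). KRT10, a type I keratin of differentiating epidermis, held 35.4 and 34.5 CPM in HEK and 19.9 and 21.3 CPM in Jurkat. These ranges did not overlap either, but its log2 fold change of 0.53 (SE 0.20) did not pass (edgeR adjusted p = 0.0877). Jurkat kept 58.9% of its HEK level in CPM.

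KRT8 lies at chr12:52897187-52949954 on the minus strand of GRCh38 and KRT18 at chr12:52948871-52952906 on the plus strand, and their annotated ends overlap. Both have many processed pseudogenes, copies of the mRNA elsewhere in the genome, of which the tables list 51 for KRT8 and 67 for KRT18. Of all 40-base stretches (the read length) in their annotated transcripts, 13.8% for KRT8 and 22.2% for KRT18 also occur in transcripts of other genes, against at most 0.537% for the other 8 members. These other genes numbered 611 for KRT8 and 64 for KRT18, so for KRT8 most were not its pseudogenes. The part of the pseudogenes in these percentages was not separated. Shown here is the coding stretch of read length that the largest number of KRT18 pseudogenes carry, since a read from it cannot be placed by its sequence alone. It lies in exon 4 of 7 at chr12:52951485-52951524 on the plus strand, occurs in 11 of the pseudogenes, and was read from GENCODE transcripts of GRCh38.
KRT18: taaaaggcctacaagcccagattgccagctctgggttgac

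RSEM divides such reads between genes. In the 12 libraries with HEK cells, pseudogenes received from 17.7% to 26.5% of the counts of KRT8 plus its pseudogenes and from 8.74% to 20.8% of those of KRT18. In pure Jurkat they received 80.6% and 75.8% for KRT8 and 91.7% and 100% for KRT18. The summed pseudogene level itself was 4.66 and 3.85 CPM in HEK against 5.59 and 4.03 CPM in Jurkat for KRT8, where the ranges overlapped. For KRT18 it was 5.63 and 4.58 CPM in HEK against 2.46 and 3.38 CPM in Jurkat, lower in Jurkat without overlap. With pseudogene counts added to the parent gene, the log2 fold change was 1.3 (SE 0.25, edgeR adjusted p = 0.0120) for KRT8 and 3.36 (SE 0.25, adjusted p = 0.00094) for KRT18. Both calls therefore held, while the sizes depended on how these reads are placed. The pseudogenes with most counts in the pure libraries were KRT18P5 (79.6 in HEK, 22 in Jurkat) and KRT8P39 (39.4 and 17.0).

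**Figure D2:**
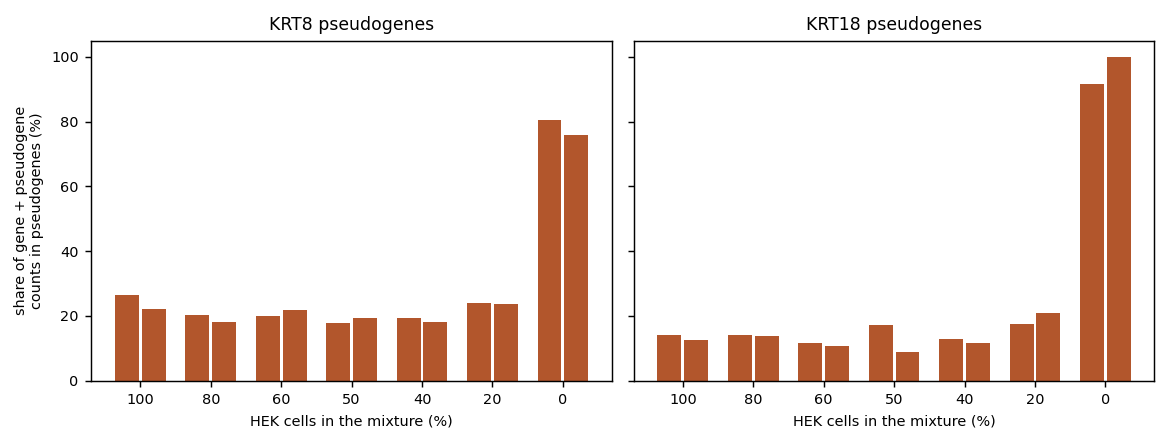
Share of the counts of KRT8 (left) and KRT18 (right) plus their pseudogenes that lay in pseudogenes (vertical axis, %) against the percentage of HEK cells, with a bar for each of 2 libraries. In pure Jurkat the bars stand between 75.8% and 100%, while no library with HEK cells exceeds 26.5%.

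Vimentin was high in both lines. VIM held 282 and 266 CPM in HEK and 272 and 396 CPM in Jurkat, and these ranges overlapped. Its log2 fold change was -0.52 (SE 0.26, edgeR adjusted p = 0.163). Leaving out the first Jurkat library gave -0.77 (adjusted p = 0.0473), so that the verdict on VIM turned on a single library. The antisense gene VIM-AS1 held 1.22 CPM in HEK and 0.689 CPM in Jurkat on average. The study's methods describe the libraries as strand-specific, and whether the counting used strand is not given in the sources used here.

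All 4 type IV genes were higher in HEK. NEFM was the most abundant of the 10 in HEK, with 1152 and 1324 CPM against 9.62 and 4.84 CPM in Jurkat, a log2 fold change of 7.22 (SE 0.43, edgeR adjusted p = 0.000669). NEFL followed the same course with 141 and 145 CPM in HEK and 0.671 and 1.13 CPM in Jurkat (7.02 on the log2 scale, SE 0.33, adjusted p = 0.00064). For both genes every HEK library stood over 100 times above every Jurkat library. NES held 17.5 and 5.54 CPM in HEK and no count in either Jurkat library, which makes it at least 19.9-fold higher in HEK at a floor of 3 counts per Jurkat library (edgeR adjusted p = 0.016). From the second HEK library alone this bound is 9.60-fold. Its 2 HEK libraries differed more from each other than those of any other member. INA held 29.3 and 21.6 CPM in HEK and 7.61 and 9.19 CPM in Jurkat, a log2 fold change of 1.36 (SE 0.27, adjusted p = 0.0137). It was the type IV gene of which Jurkat kept most, 33.0% of the HEK level in CPM. NT5C2, a nucleotidase gene that overlaps INA on the opposite strand, held 12.8 CPM in HEK and 23.4 CPM in Jurkat, and its part in the INA level was not tested. The calls of NES and INA rested on single libraries, since NES did not pass without the second Jurkat library (adjusted p = 0.0538) nor INA without the first HEK library (1.16, adjusted p = 0.0808).

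To place what Jurkat kept, the Jurkat level in CPM was taken as a percentage of the HEK level in CPM. Such percentages compare shares of each library's counts, not amounts per cell. With spike-in scaling, the log2 fold changes of HEK over Jurkat were 3.05 for VIM, 2.70 for LMNB1, 4.09 for KRT10 and 4.95 for INA. All 10 members were then higher in HEK. In CPM, the percentage was 0.584% for NEFM, 0.630% for NEFL, 0.338% for KRT18, 8.91% for LMNA and 9.91% for KRT8. For the 10 markers of attached kidney cells it ranged from 0 to 21.6% with a median of 1.80%. In the other direction, T cell markers in HEK ranged from 0.0344% to 4.04% of their Jurkat level with a median of 0.276%. NES, NEFL, NEFM, KRT8, KRT18 and LMNA thus lay within the range of the kidney markers, whereas INA (33.0%), KRT10 (58.9%), VIM (122%) and LMNB1 (148%) lay above it.

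Promoters of the type IV genes NES and INA are given because both genes passed as higher in HEK but Jurkat held counts of INA alone. Each runs from 250 bases before to 50 after the annotated start (RefSeq, GRCh38.p14), NES at chr1:156677358-156677657 on the minus strand and INA at chr10:103276888-103277187 on the plus strand. Capitals mark matches, on either strand, to the GC box GGGCGG, the TATA box TATAAA, the CCAAT box with the letters CCAAT, the AP-1 motif TGANTCA, the E-box CACGTG and the CRE core TGACG. Over 35116 promoters of this length the share with a match was 45.0%, 11.5%, 34.6%, 7.71%, 7.26% and 24.6%, in that order. NES and INA held 4 GC boxes each, and NES also held 1 CRE core, in a run with 2 of its GC boxes. GC content was 60.3% for NES and 71.3% for INA, with a median of 58.7% over all promoters.
NES: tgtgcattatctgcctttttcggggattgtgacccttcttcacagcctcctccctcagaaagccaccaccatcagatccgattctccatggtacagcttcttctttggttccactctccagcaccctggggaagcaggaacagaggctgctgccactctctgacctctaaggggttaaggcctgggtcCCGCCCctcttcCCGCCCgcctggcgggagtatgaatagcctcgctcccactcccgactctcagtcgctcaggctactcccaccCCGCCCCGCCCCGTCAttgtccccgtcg
INA: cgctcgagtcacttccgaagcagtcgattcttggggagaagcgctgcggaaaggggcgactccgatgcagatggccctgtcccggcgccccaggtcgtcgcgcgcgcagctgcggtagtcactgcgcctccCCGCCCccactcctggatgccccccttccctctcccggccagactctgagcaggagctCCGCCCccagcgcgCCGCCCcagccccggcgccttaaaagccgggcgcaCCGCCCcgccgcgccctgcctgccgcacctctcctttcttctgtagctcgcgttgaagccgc

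Of the lamins, LMNA was higher in HEK and LMNB1 did not pass. LMNA, the A-type lamin gene, held 40.6 and 39.4 CPM in HEK and 3.58 and 3.55 CPM in Jurkat, a log2 fold change of 3.26 (SE 0.23, edgeR adjusted p = 0.000884). LMNB1, a B-type lamin gene, held 45.3 and 68.9 CPM in HEK and 102 and 67.4 CPM in Jurkat. Its groups overlapped and its log2 fold change of -0.79 (SE 0.32) did not pass (adjusted p = 0.106). LMNB2, the second B-type gene, was higher in HEK with 84.9 and 74.1 CPM against 29.5 and 30.8 CPM (log2 1.17, SE 0.21, adjusted p = 0.00977).

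Promoters of the lamin pair are shown because only LMNA passed, LMNA at chr1:156082323-156082622 and LMNB1 at chr5:126776373-126776672, both on the plus strand (RefSeq, GRCh38.p14). LMNA held 1 GC box, 1 CCAAT and 1 CRE core at a GC content of 66.3%. LMNB1 held none of the 6 motifs at a GC content of 52%, which says only that these letters are not in this window. At a further annotated start of LMNB1, chr5:126776886-126777185, the window held 4 GC boxes, 1 CCAAT, 1 E-box and 1 CRE core at a GC content of 73.7%, and LMNA has further starts too, so the motif content depends on the start chosen.
LMNA: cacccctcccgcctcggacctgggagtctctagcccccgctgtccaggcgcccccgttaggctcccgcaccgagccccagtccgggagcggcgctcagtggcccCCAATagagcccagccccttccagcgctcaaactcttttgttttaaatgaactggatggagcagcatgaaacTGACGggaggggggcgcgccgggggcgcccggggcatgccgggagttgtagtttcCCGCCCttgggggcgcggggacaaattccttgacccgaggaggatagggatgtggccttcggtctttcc
LMNB1: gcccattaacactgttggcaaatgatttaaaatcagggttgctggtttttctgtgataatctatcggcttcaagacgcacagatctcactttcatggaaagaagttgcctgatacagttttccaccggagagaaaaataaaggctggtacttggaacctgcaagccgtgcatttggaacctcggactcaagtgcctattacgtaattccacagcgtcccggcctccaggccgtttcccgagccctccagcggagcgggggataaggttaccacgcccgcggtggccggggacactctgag

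**Figure D3:**
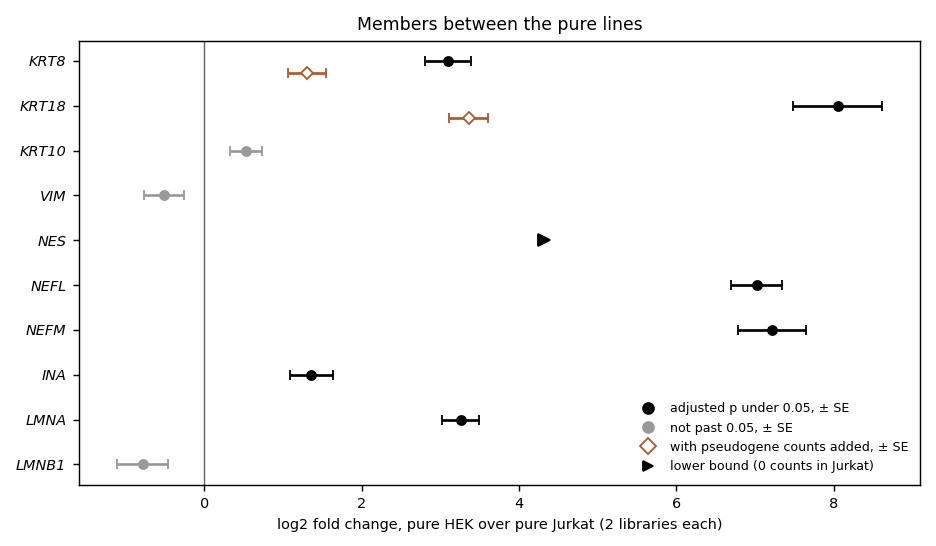
log2 fold change of pure HEK over pure Jurkat (horizontal axis) for the 10 filament genes, 2 libraries in each line, with bars for the SE. Black points passed, grey points (KRT10, VIM, LMNB1) did not, open diamonds show KRT8 and KRT18 with pseudogene counts added (1.3 and 3.36), and the arrow for NES is the lower bound of 19.9-fold. The upper point of KRT18 rests on 1 count in Jurkat.

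Levels between genes were compared per length, as TPM, a measure per transcript length, rescaled over genes without spike-ins. The study made cDNA from oligo-dT primers that carried the sample barcode. Whether counts in such libraries grow with transcript length was not tested. If they do not, TPM understates long transcripts, and the orders, shares and ratios in TPM below carry this. By CPM, INA (25.4) stood above KRT8 (13.3) in HEK, the reverse of their order in TPM. In HEK the order was NEFM at 545 ± 44.2 TPM (SD, n = 2), VIM at 147 ± 4.61, NEFL at 71.4 ± 0.156, KRT10 at 58.4 ± 0.804, LMNB1 at 50.6 ± 23.5, KRT18 at 45.3 ± 2.95, LMNA at 35.3 ± 2.82, KRT8 at 9.24 ± 0.850, INA at 7.88 ± 1.63 and NES at 2.05 ± 1.49. Of these neighbours, KRT10 and LMNB1, LMNB1 and KRT18, and KRT8 and INA had overlapping ranges. In Jurkat the order was VIM at 191 ± 45.2 TPM, LMNB1 at 92.2 ± 30.7, KRT10 at 37.0 ± 1.62, LMNA at 4.52 ± 0.161, NEFM at 3.69 ± 1.15, INA at 2.78 ± 0.322, KRT8 at 1.05 ± 0.159, NEFL at 0.416 ± 0.0381, KRT18 at 0.250 ± 0.353 and NES at 0. Ranges overlapped between LMNA and NEFM, NEFM and INA, NEFL and KRT18, and KRT18 and NES. The Jurkat order thus opened with 3 clearly separated genes, VIM, LMNB1 and KRT10, and the rest lay below 5 TPM.

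Summed over the 10 genes, type IV transcripts made up 64.4% ± 0.638 (SD, n = 2) of the TPM in HEK, vimentin 15.2% ± 1.32, keratins 11.6% ± 0.951 and lamins 8.79% ± 1.64. In Jurkat, vimentin made up 57.1% ± 11.0, lamins 29.3% ± 10.5, keratins 11.5% ± 0.186 and type IV 2.08% ± 0.329. The keratin share was thus alike in both lines to within its spread, although in Jurkat it came nearly all from KRT10. The keratin level was not alike, since the totals of the 10 genes differed. These were 934 and 1011 TPM in HEK and 322 and 343 TPM in Jurkat. Keratins summed to 115 and 111 TPM in HEK and 37.6 and 39.1 TPM in Jurkat. In the mixtures the type IV share ranged from 49.7% to 72.2%, so that even at 20% HEK cells, with 51.2% and 53.2%, the type IV genes remained the largest class. Most of this class was NEFM, with 514 and 576 of 597 and 655 type IV TPM in pure HEK. At 20% HEK, NEFM held 452 and 444 of 525 and 509 type IV TPM. NEFL, INA and NES each lay below VIM in these libraries.

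**Figure D4:**
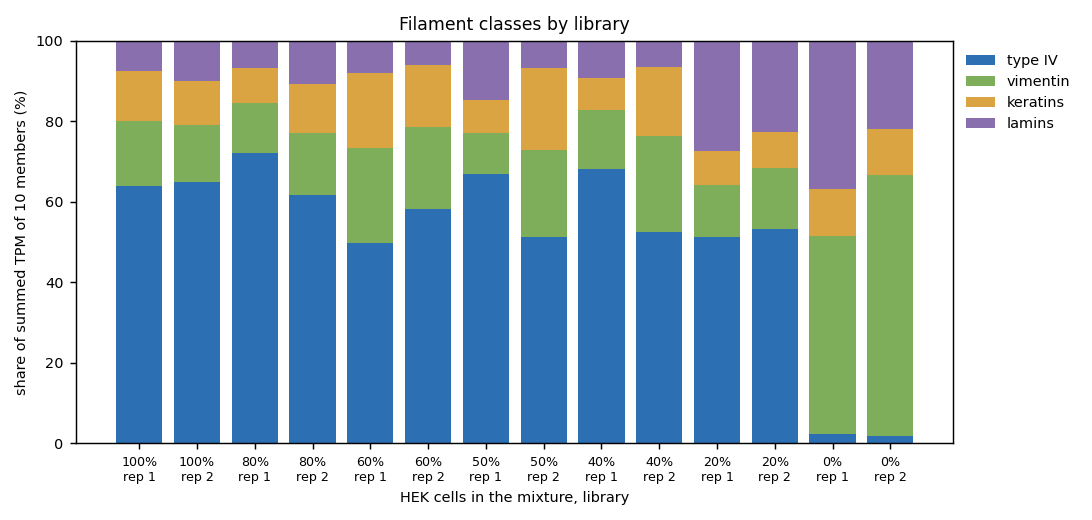
Share of the summed TPM of the 10 filament genes (vertical axis, %) taken by type IV genes (NES, NEFL, NEFM, INA), vimentin, keratins (KRT8, KRT18, KRT10) and lamins (LMNA, LMNB1) in each library, ordered by the percentage of HEK cells. Type IV genes are the largest class in all 12 libraries with HEK cells, and vimentin in both pure Jurkat libraries. Most of the type IV part in those 12 libraries is NEFM.

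Ratios of filament partners were compared as log2 of TPM with 0.1 added. NEFM to NEFL was 2.93 ± 0.114 (SD, n = 2) in HEK and 2.84 ± 0.550 in Jurkat, a difference of 0.083 that lay within the spread (exact permutation test, two-sided, p = 1). LMNA to LMNB1 was -0.44 ± 0.809 in HEK and -4.28 ± 0.539 in Jurkat. INA to NEFM was -6.11 ± 0.414 in HEK and -0.36 ± 0.605 in Jurkat, VIM to KRT18 was 1.70 ± 0.0487 and 9.59 ± 2.17, and KRT8 to KRT18 was -2.28 ± 0.225 and 2.23 ± 1.63. The groups of these 4 ratios did not overlap, but the exact permutation test over 2 against 2 libraries cannot give a two-sided p below 0.333, which it gave for each (0.417 after adjustment over the 5 ratios). In Jurkat, NEFL and KRT18 lay at or near the floor, so ratios with them depend on the 0.1 added. With pseudogene TPM added, the HEK-Jurkat difference of KRT8 to KRT18 went from -4.51 to -2.79.

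Whether the genes follow the percentage of cells was asked in the 10 mixed libraries, which the comparison of the pure lines did not use. The effect is the log2 change for the step from 20% to 80% HEK cells. Since HEK RNA by that estimate already made up 60.9% and 61.1% at 20% HEK cells and 95.7% and 95.3% at 80%, a gene expressed only in HEK can gain little over this step. In CPM alone, fewer cells of a line and less RNA per cell cannot be told apart, although the cell percentages here were set by the design. From the pure levels, the expected log2 change was 0.64 for KRT18, NEFL and NEFM, 0.57 for LMNA, 0.56 for KRT8 and -0.22 for LMNB1. For comparison, the T cell markers all fell, with a median log2 change of -3.24, and 1 of the 10 markers of attached kidney cells rose (YAP1).

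Of the 10 filament genes, 1 passed, LMNB1, which fell by 2.31 on the log2 scale (SE 0.61, edgeR adjusted p = 0.0441). Over all 17242 genes tested, 5.61% passed, 5.08% as falling. LMNA had 0.55 (SE 0.19, adjusted p = 0.128), KRT8 0.43 (SE 0.22, adjusted p = 0.332), KRT18 0.29 (SE 0.26, adjusted p = 0.639) and NEFM 0.20 (SE 0.35, adjusted p = 0.829). The remaining slopes were 0.19 for INA, 0.17 for KRT10, -0.03 for NES, -0.12 for NEFL and -0.13 for VIM, none with an adjusted p under 0.777.

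LMNB1 held 244 and 178 CPM at 20% HEK. Its libraries at 40% held 63.6 and 32.2 CPM, those at 50% held 115 and 38.8, those at 60% held 30.3 and 34.7, and those at 80% held 38.6 and 49.5. Both libraries at 20% HEK thus stood above all 4 pure libraries, the lower of them 1.76 times above the highest pure value, 102 CPM in Jurkat. Of 11467 genes with a mean of at least 5 CPM, 5.71% had both libraries at 20% HEK above all pure libraries, and 0.253% by at least this ratio. None of the 13 genes of LMNB1's partners in the nuclear lamina that reached this level, and none of the 5 lamin processing genes, had both libraries at 20% HEK above all pure libraries. At a share of 5.71% over all genes, few or none would be expected in lists of this size. Of the 13 partners, 2 (15.4%) had both libraries at 20% HEK below all pure libraries, against 3.51% of all genes.

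The fall of LMNB1 rested on few libraries. With file-name group as a covariate it was -1.91 (edgeR adjusted p = 0.425), within the 6 mixed libraries of the group of 8 it was -3.21 (adjusted p = 0.373), and within the 4 of the group of 6, which hold none below 50% HEK, it was 1.01 (adjusted p = 0.263). Without the first library at 20% HEK or without the second the call was also lost, and over each of the 10 libraries left out the log2 change ranged from -2.71 to -1.78, and the call was kept only without the first library at 50% or the second at 40%. By DESeq2 it was -2.31 (adjusted p = 0.0142).

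**Figure D5:**
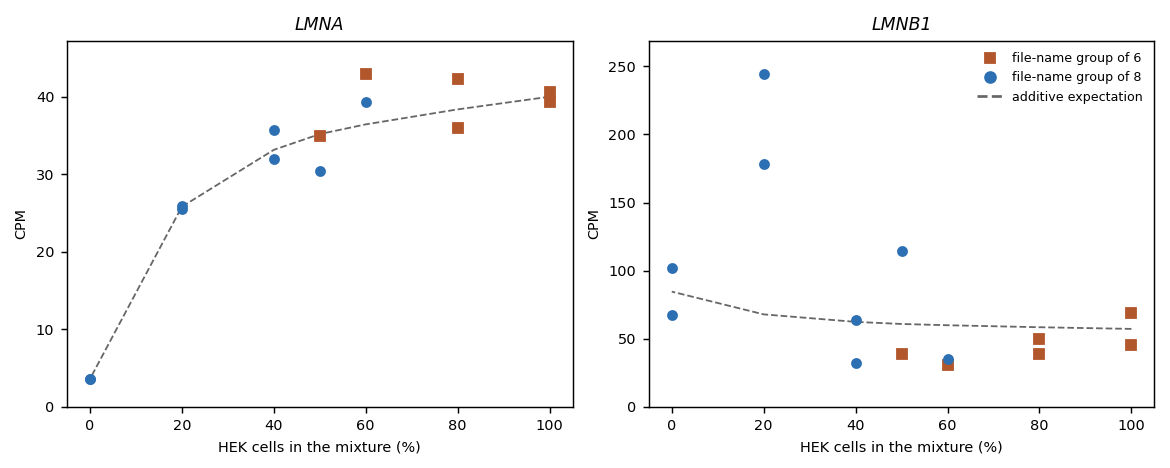
CPM (vertical axes, linear, from 0) of LMNA and LMNB1 in each library against the percentage of HEK cells, with squares and circles for the 2 file-name groups and a dashed line for the level expected under additive mixing. LMNA lies close to the line, while the libraries of LMNB1 at 20% HEK, 244 and 178 CPM, lie far above it.

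The other members differed in where the mixtures lay against pure HEK. KRT18 and LMNA lay below both pure HEK libraries in 8 of 10 mixed libraries, NEFM in 6, NEFL and KRT10 in 5, NES and VIM in 4, KRT8 in 3 and INA in 1. KRT8 ranged from 9.72 to 19.2 CPM with a median of 13.6, KRT18 from 19.1 to 38.4 with a median of 25.4, and KRT10 from 26.9 to 63.3 with a median of 33.7. NEFM ranged from 832 to 1597 CPM with a median of 1072 and NEFL from 79.6 to 192 with a median of 137. NES ranged from 3.51 to 13.9 CPM with a median of 5.94, INA from 21.1 to 36.1 with a median of 26.1, LMNA from 25.5 to 42.9 with a median of 35.3, and VIM from 200 to 339 with a median of 279. No mixed library of KRT8, KRT18, NEFL, NEFM, NES, INA or LMNA fell into the range of pure Jurkat. LMNA had the smallest spread of the 10 about the level expected from additive mixing, with an SD of 0.113 on the log2 scale over 10 libraries, and held 25.5 and 25.9 CPM in the 20% libraries, 32.0 and 35.8 in the 40% libraries, 30.5 and 34.9 in the 50% libraries, 42.9 and 39.3 in the 60% libraries and 35.9 and 42.3 in the 80% libraries. Ordered by mean CPM over the 7 conditions, LMNA had overlapping ranges in 3 of 6 neighbouring pairs and the other members in 4 or 5, and for all members but VIM and LMNB1 pure Jurkat was the lowest condition and stood apart from the next.

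Additive mixing was asked as well, that is, whether the mixed libraries held more or less of a gene than the pure levels and the HEK share of RNA give. Of the 10 genes, 1 passed, KRT8, with a log2 ratio of observed to expected of 0.26 (SE 0.068, edgeR adjusted p = 0.0253) and above expectation in 10 of 10 mixed libraries. Over all 14516 genes tested, 13.8% passed, 6.82% as above. The HEK share of RNA in this test came from a least-squares fit that put it at 100% in the second library at 50% HEK, and under it 9 of 10 T cell markers passed as above expectation, by a median of 2.72. With the share taken from genes high in Jurkat, an alternative added after seeing this, 7 of 10 T cell markers still passed as above and 1 as below, with a median of 0.52. All 10 of these markers meet the rule that chose the genes setting this share, so they are no separate check of it. With this share KRT8 had 0.30 (adjusted p = 0.0244) and INA also passed with 0.28 (adjusted p = 0.0489).

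KRT8 did not pass with pseudogene counts added (0.11, edgeR adjusted p = 0.311), within the group of 8 (0.20, adjusted p = 0.273) or within the group of 6 (0.34, adjusted p = 0.254). It was also lost without the second Jurkat library (0.21, adjusted p = 0.0593), the first at 60% HEK (0.22, adjusted p = 0.0636) or the second at 20% HEK (0.25, adjusted p = 0.0555). INA had 0.25 (SE 0.085, adjusted p = 0.0622), NEFM 0.22 (SE 0.11, adjusted p = 0.210), NES -0.41 (SE 0.22, adjusted p = 0.227), which became 0.69 (adjusted p = 0.0192) without the first HEK library and -0.96 (adjusted p = 0.00917) without the second, and LMNB1 0.38 (SE 0.27, adjusted p = 0.364). VIM, LMNA and KRT18 lay within 0.1 of expectation on the log2 scale, at 0.00035, -0.0095 and -0.093. Fitted over all 10 mixed libraries, no member differed by more than 2-fold in this test. None passed against that bound, which 0.0138% of all genes passed. Deviations of opposite sign cancel in such a fit. In single libraries the log2 ratio of observed to expected ranged from -0.92 to 1.88 for LMNB1 and from -1.58 to 0.56 for NES.

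Most other keratins were at the floor in both lines, with at most 3 counts in every pure library for 24 of 27 type I and 22 of 25 type II genes. Of the 27 other type I keratins, 1 was abundant enough to be tested, and so was 1 of the type II keratins. KRT222, a type I keratin-like gene, was higher in HEK with 7.72 and 6.99 CPM against no count in Jurkat, at least 12.7-fold (edgeR adjusted p = 0.00324). KRT1, the type II partner of KRT10 in epidermis, was seen in Jurkat alone of the pure lines, with 10.7 and 12.7 CPM against no count in HEK, at least 45.6-fold higher (adjusted p = 0.0013). In the mixtures KRT1 fell by 3.19 on the log2 scale from 20% to 80% HEK (SE 0.48, adjusted p = 0.00105), from 5.20 and 9.81 CPM to 0.396 and 0.886 CPM. In pure Jurkat, KRT1 and KRT10 thus held more CPM than KRT8 and KRT18, whose own counts there depend on how pseudogene reads are placed. The 50 keratins that were not tested reached at most 0.344 CPM on average in HEK and 0.931 CPM in Jurkat.

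Among 10 other filament genes, 6 were tested, and SYNM (synemin), BFSP1 (filensin) and LMNB2 were higher in HEK while GFAP, IFFO1 and IFFO2 did not pass. SYNM held 4.43 and 6.06 CPM in HEK and 0 and 0.661 CPM in Jurkat.

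Of 16 plakin and desmosome genes, which anchor filaments, 12 were tested, 7 were higher in HEK and 2 in Jurkat. Over all 15794 genes tested between the pure lines, 24.2% were higher in HEK and 19% in Jurkat. The same shares apply to the counts of the other gene lists between the pure lines. DSP (desmoplakin, which ties keratins to desmosomes) held 157 and 304 CPM in HEK and 0.448 and 1.13 CPM in Jurkat (log2 7.87, SE 0.60, edgeR adjusted p = 0.00102). DSC2, a desmosomal cadherin, held 26.5 and 36.7 CPM in HEK and 0.224 and 0.484 CPM in Jurkat, and JUP (plakoglobin) 12.2 and 16.7 against 1.57 and 1.29 CPM. Higher in Jurkat were MACF1, which links microtubules to actin, with 522 and 857 CPM against 141 and 107 CPM in HEK, and EVPL (envoplakin) with 1.34 and 2.65 CPM against no count in HEK. PLEC (plectin), PKP4 and FAM83H did not pass. In the mixtures PKP2 rose, by 0.91 on the log2 scale (adjusted p = 0.0418).

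Of 14 partners of the lamins at the nuclear envelope, all tested, EMD (emerin) was higher in HEK with 49.9 and 48.2 CPM against 8.28 and 11.6 CPM (log2 2.06, SE 0.26, edgeR adjusted p = 0.00384). LEMD3, SYNE1 and SYNE2 were higher in Jurkat, SYNE2 (nesprin-2) with 337 and 421 CPM against 86.4 and 163 CPM in HEK. The other 10 did not pass, LBR (the lamin B receptor) among them with 192 and 206 CPM in HEK and 173 and 203 CPM in Jurkat. The 5 lamin processing genes had edgeR adjusted p from 0.0650 (FNTA, a farnesyltransferase subunit, log2 0.65) to 0.536, and 1 had an unadjusted p under 0.05.

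Epithelial genes were low. Of 12 epithelial genes, 4 were tested, and EPCAM, CDH1 and ESRP2 were higher in HEK at low levels, with CDH1 (E-cadherin) at 1.91 and 2.77 CPM against 0.448 and 0.322 CPM, while ESRP1 was higher in Jurkat. Of 7 mesenchymal genes, 6 were tested. CDH2, ZEB2, SNAI2 and TWIST1 were higher in HEK, ZEB1 was higher in Jurkat with 462 and 517 CPM against 84.6 and 115 CPM, and FN1 did not pass. CDH2 (N-cadherin) held 101 and 115 CPM in HEK and 28.3 and 16.2 CPM in Jurkat.

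Of 12 neuronal genes, 6 were tested, and 4 were higher in HEK and 2 in Jurkat. UCHL1, an abundant neuronal ubiquitin hydrolase, held 112 and 117 CPM in HEK and 1.34 and 1.45 CPM in Jurkat (log2 6.12, SE 0.27, edgeR adjusted p = 0.00064). SOX2, a neural progenitor factor, held 15.0 and 12.5 CPM in HEK and no count in Jurkat, at least 23.9-fold, and GAP43 held 6.77 and 8.25 against 0.224 and 0 CPM. TUBB3, the neuronal beta-tubulin, went the other way with 7.13 and 5.45 CPM in HEK and 11.9 and 9.74 CPM in Jurkat (adjusted p = 0.0336), as did REST, a repressor of neuronal genes, with 102 and 110 against 366 and 183 CPM. The 6 neuronal genes not tested held at most 0.700 CPM on average in HEK and 1.25 CPM in Jurkat. Among markers of other cell types, COL1A1, a collagen gene, was higher in HEK with 10.9 and 9.96 CPM against 2.94 and 3.22 CPM, and PECAM1, an endothelial and blood cell adhesion gene, was higher in Jurkat with 28.8 and 46.7 CPM against 0.513 and 0.139 CPM. CD79A, a B cell receptor gene, was also higher in Jurkat, with 5.15 and 6.93 CPM against 0.212 and 0.066 CPM.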

How the data were processed

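RNA from HEK-293T and Jurkat cells and from 5 mixtures was sequenced in 14 libraries. Per the labels and the study's methods, mRNA was captured by oligo-dT, ERCC spike-ins were added and barcoded cDNA was pooled, and the authors aligned 40-base reads with STAR 2.6.1b to GRCh38 with ERCC sequences and quantified them with RSEM 1.3.1. Their annotation release is not given in the sources used here. The deposited expected counts were not normalized, and the deposited TPM were scaled by the authors over genes and spike-ins.

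Expected counts were rounded for tests. Pure HEK was compared with pure Jurkat, the percentage of HEK cells was fitted over 10 mixed libraries, and observed levels were compared with additive ones, by edgeR 4.0.16 (R 4.3.3; TMM, filterByExpr, quasi-likelihood, Benjamini-Hochberg threshold 0.05), with groups from the sample labels. The HEK share of RNA came from a least-squares fit, with the lowest expected level set to 0.2 CPM. Alternatives used DESeq2 1.42.0, limma 3.58.1 on log2(TPM + 0.5), other scalings and filters, pseudogene counts added to KRT8 and KRT18, file-name groups and single libraries left out. Partner ratios used scipy 1.17.1. On simulated data for the pure comparison, the test called 24.4% of genes set to a 2-fold difference and 93.2% at 4-fold, with 5 false calls among 15573 genes.

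Symbols came from GENCODE release 44 and matched 57754 of 58440 identifiers. Unmatched identifiers held at most 0.327% of counts in a library. NEFL and NEFM are reported without position or sequence. Some further items are not reported here. Of each other list, up to 3 genes in each direction with the lowest adjusted p between the pure lines and up to 3 of the highest CPM that did not pass were named, and CDH2, PKP2 and YAP1 were added after their values were seen. The members, the lists and the tests were chosen with earlier results of these data known.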

Additional observations from a re-analysis of the deposited data

How the results depend on the processing

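Between the pure lines the 7 calls kept their direction under each alternative, and the number of members called was 7 under all settings but spike-in scaling (10) and single libraries left out (6 to 8). Spike-in scaling shifted the median of all genes by 3.61 on the log2 scale and turned VIM (3.05) and LMNB1 (2.70), both below that shift. In the mixtures it shifted the median by 1.83, gave 9 members called, all rising, and turned VIM (1.68), NES (1.46) and NEFL (1.58). The member not called was LMNB1, at -0.29 (edgeR adjusted p = 0.643). The number called there was 2 by DESeq2, 0 with file-name group as a covariate, 0 within either group, where LMNB1 turned to 1.01 in the group of 6, and 0 to 1 with single libraries left out. For additive mixing it was 0 against a log2 bound of 1, 0 with the spike-in share, 2 with the share from genes high in Jurkat (added after seeing the data), 0 within either group, 0 with pseudogene counts added and 0 to 3 with single libraries left out, NES ranging from -0.96 without the second HEK library to 0.69 without the first, where it turned. Without the 4 libraries highest in ribosomal protein counts, also added later, NEFM was called (0.40) and KRT8 was not (0.21). By CPM in place of TPM, 4 members kept their rank in HEK and 8 in Jurkat. With pseudogene TPM added, the difference in KRT8 to KRT18 was -2.79 and in VIM to KRT18 -4.43, and with 0.5 added NEFM to NEFL was 0.75.

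Over all genes, 6827 passed between the pure lines, 3131 without the second HEK library, 3194 without the first and 15125 by spike-in scaling. In the mixtures 967 passed, against 512 with the covariate, 203 within the group of 8, 599 within the group of 6, 572 without the first library at 20% HEK, 1452 by DESeq2 and 13697 by spike-in scaling. For additive mixing 2009 passed, against 526 and 116 within the groups, 3570 and 3761 without either HEK library, 1197 without the 4 libraries and 2 beyond the bound. The cause was not tested. No paired analysis was possible because the labels give no replicate numbers. The 2 Jurkat libraries had the lowest depth, which limits KRT18, NES and NEFL there.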

Other observations

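The 2 libraries of a mixture held 11.0% and 15.7% of counts in ribosomal protein genes at 50% HEK, 10.7% and 13.3% at 40%, and 11.3% and 12.5% at 80%. They were nearly tied at 60%, with 13.6% and 13.9%, and at 20%, with 11.6% and 11.7%, so the order of the libraries rests on small differences in 2 of 5 mixtures. Comparing the library with the larger share to the other, KRT18 was higher in 5 of 5 mixtures, by 0.40 ± 0.281 on the log2 scale (SD, n = 5). KRT8, KRT10 and LMNA were higher in 4 of 5, VIM and INA in 3 and LMNB1 in 2. NES was higher in 0 of 5, with a mean difference of -0.75 ± 0.468, and NEFL and NEFM in 1 of 5, with -0.50 ± 0.408 and -0.45 ± 0.285. The difference between keratins and neurofilament chains was not tested. Of 11467 genes with a mean of at least 5 CPM, 11.0% were higher in all 5 mixtures, 26.9% in 4, 12.7% in 1 and 3.51% in none. The most frequent outcome over all genes was thus 4 of 5. The part of the ribosomal protein share in these differences was not tested.

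LBR, the lamin B receptor gene, held 755 CPM in the first library at 60% HEK and between 121 and 214 CPM in the other 13 libraries, while LMNB1 in that library was at its lowest, 30.3 CPM. TMPO, the gene of lamina-associated polypeptide 2, held 716 and 301 CPM in HEK and 355 and 763 CPM in Jurkat, so that libraries of the same line differed by more than the lines.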
